A study of Mus musculus with 9 samples.

Results

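T-type calcium channels are the low-voltage-activated members of the voltage-gated calcium channel family. Their pore-forming subunits are encoded in the mouse by 3 genes: Cacna1g (Cav3.1), Cacna1h (Cav3.2) and Cacna1i (Cav3.3). The channels open at membrane potentials close to rest and inactivate quickly, so that they pass a brief calcium current before the long-lasting L-type channels take over. In the heart, T-type current is a feature of the fetal ventricle and of pacemaker and conduction cells, and it declines in ventricular myocytes after birth. Cacna1h and Cacna1g are the cardiac forms, whereas Cacna1i is known mainly from the brain.

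These genes were measured in the heart ventricles of male fetuses at stage E18.5. The fetuses differed at Esrrg, the gene of the orphan nuclear receptor ERRγ (estrogen-related receptor gamma), which regulates genes of oxidative metabolism. They were +/+ (WT), +/- (HET) or -/- (KO), with 3 Affymetrix expression arrays per genotype and 9 in all, and no other allele or treatment is named in the labels. The source labels mention 3 ventricles for each sample and the titles give biological replicate numbers. Whether an array held 1 ventricle or a pool of 3 is not settled, so errors and tests measure the spread between these arrays. The labels used here give neither the strain nor how the Esrrg allele was made.

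The members are every probe set that the platform annotation pairs with one of the 3 T-type genes. There were 3 such probe sets out of 45101 on the array: a bright one (1422710_a_at) and a dim one (1427607_at) for Cacna1h, and a single one (1423365_at) for Cacna1g. None was named for Cacna1i, so its level was not measured here, and 2 of the 3 genes are covered out of 18193 genes named on the array. The family was selected on the measured difference of Cacna1h between KO and WT. That difference is therefore given as a description without a test, and comparisons that share its WT or KO arrays are treated in the same way. The probe sets were set against a filter on low values, a mean log2 level of 5.24, which is a signal of 21.7. The bright Cacna1h probe set and the Cacna1g probe set passed it, and the dim Cacna1h probe set did not.

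The values are MAS5 signals, a linear brightness per probe set, and array medians ran from 36.6 to 45.9. Genes that mark ventricular myocytes were bright in every genotype, the ventricular myosin light chain gene Myl2 with 30698 ± 2305 in WT and 27267 ± 1314 in KO (mean ± SD, n = 3). The brightest Esrrg probe set checked the labels, at 281, 213 and 206 on the WT arrays, 162, 164 and 162 on the HET arrays, and 58.3, 58.1 and 39.3 on the KO arrays. The other Esrrg probe sets, with WT means of 42.2 and 38.4, did not follow the labels in this way. Their KO means were at 78.4% and 83.5% of WT, and their HET means at 153% and 60.9%. The check therefore rests on the brightest probe set. The arrays were cut into a pair of groups at the widest gap in the log2 ratio of the bacterial control transcripts thr and dap. The 3 WT arrays and HET replicate 1 lay between -1.39 and -1.20, and the 5 others between -1.65 and -1.51. WT therefore falls wholly in the first control-ratio group, KO wholly in the other, and HET spans both. The gap at the cut, from -1.51 to -1.39, was little wider than that within the first group, from -1.39 to -1.27. The groups come from this cut and not from the labels. A technical difference between these groups cannot be told apart from genotype in KO against WT alone, so the HET arrays of each group are given beside the results.

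Cacna1h, which encodes the Cav3.2 pore, was highest in WT, intermediate in HET and lowest in KO. The bright probe set read 258, 297 and 275 on WT replicates 1 to 3. It read 198, 208 and 206 on the HET arrays and 114, 122 and 86.2 on the KO arrays. No array of one genotype overlapped those of another, and the HET arrays lay closest together. The WT mean was 277 ± 19.2, the HET mean 204 ± 5.34 and the KO mean 107 ± 18.7 (SD, n = 3 each). HET ventricles thus held 73.5% of the WT signal and KO ventricles 38.8%, a 2.58-fold difference between WT and KO. The lowest KO signal, 86.2, was still well over the filter level, so Cacna1h was measurable on all 9 arrays. In whole ventricle, fewer cells that express a gene and less of its RNA per cell cannot be told apart.

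**Figure D1:**
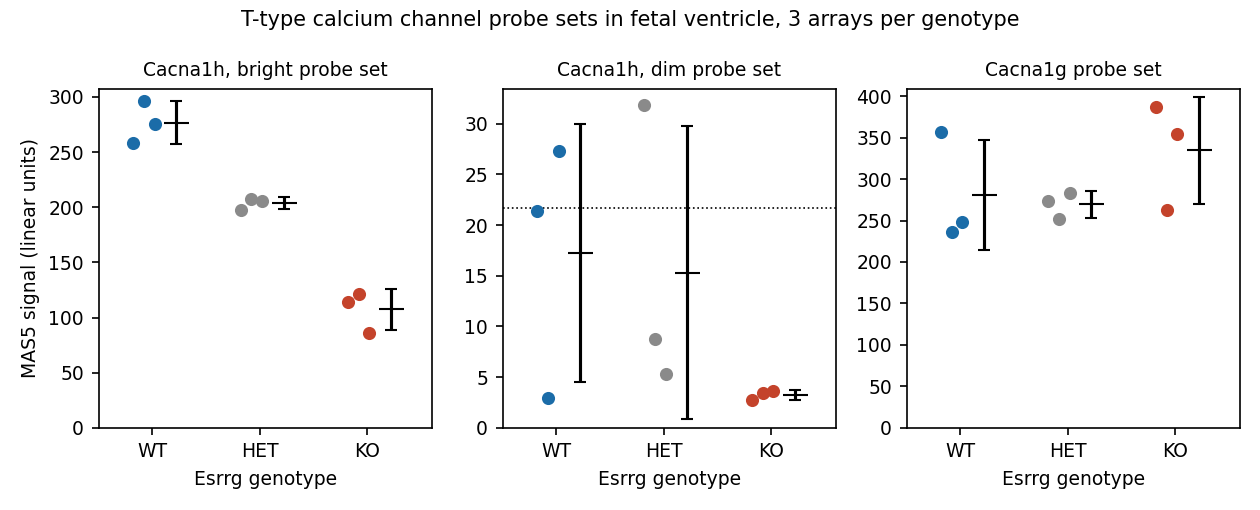
MAS5 signal (linear units) of the bright and the dim Cacna1h probe set and of the Cacna1g probe set by Esrrg genotype; points are the 3 arrays of a genotype, horizontal marks with bars are mean ± SD, and the dotted line is the filter level of 21.7. The bright Cacna1h probe set steps down from 277 in WT to 204 in HET and 107 in KO without overlap. In the other probe sets the WT arrays overlap both HET and KO.

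Cacna1h can be set beside all other probe sets in this order of the genotypes. Every KO array lay below every WT array in 9.31% of the 45037 probe sets that are not controls, a share that is only the background to the choice of Cacna1h. All HET arrays lay below every WT array and above every KO array in 0.206% of all probe sets. Among the 4193 probe sets whose KO arrays were all below the WT arrays, 93 had the HET arrays wholly between them, or 2.22%. Cacna1h was among these 93, and neither other member was. The 4193 include probe sets with small gaps between KO and WT, where HET has little room to lie between, and Cacna1h was chosen for its gap, so nothing is read from these shares.

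On the log2(signal + 16) scale, which understates changes of dim genes, the KO minus WT difference of the bright Cacna1h probe set was -1.26 ± 0.16 (limma standard error, 95% interval -1.60 to -0.91). HET minus WT was -0.41 ± 0.16 and KO minus HET was -0.84 ± 0.16. These differences share arrays with one another and are descriptive. HET minus WT and KO minus HET could each be read within a control-ratio group. In the first group, HET replicate 1 was lower than the WT mean by a log2 difference of -0.45, and in the second the KO mean differed from the mean of the other HET arrays by -0.86. HET itself differed by 0.06 between the groups (replicates 2 and 3 minus replicate 1). With the control-ratio group as a block, KO minus WT was -1.32 ± 0.29, a value that rests on HET replicate 1 as the bridge.

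The one contrast that is independent of KO minus WT asks whether the HET level departs from halfway between WT and KO. For Cacna1h, HET lay above the log2 midpoint by 0.21 ± 0.14 (95% interval -0.08 to 0.51), and the difference did not pass (limma, adjusted p = 0.987). Over all 45037 probe sets 0 passed, which is 0% (1980 had an unadjusted p under 0.05), so the same outcome is the background. The interval includes the midpoint itself. Placed between the other genotypes, HET had covered 32.9% of the log2 change of Cacna1h and 43.2% of its change in signal. The corresponding values of the brightest Esrrg probe set were 24.9% and 38.9%.

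**Figure D2:**
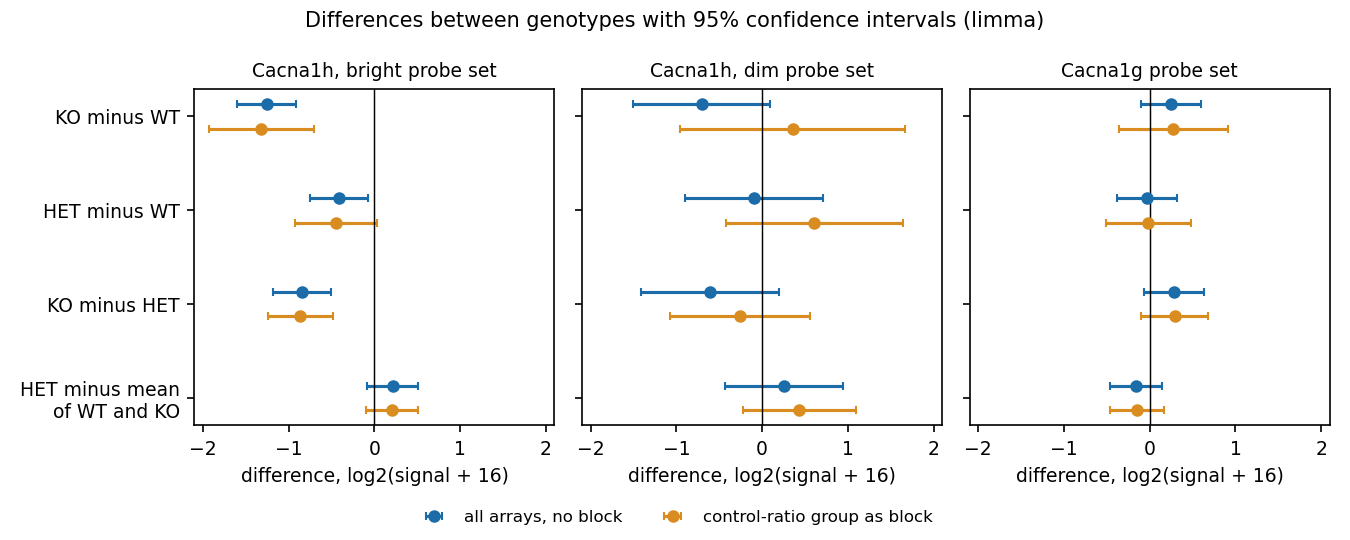
Differences between genotypes on the log2(signal + 16) scale for each probe set, with 95% confidence intervals from limma, fitted to all 9 arrays without a block (blue) and with the control-ratio group as a block (orange). The bright Cacna1h probe set keeps KO minus WT near -1.26 and -1.32 in both fits, the dim one goes from -0.70 to 0.36, and the intervals of Cacna1g include 0 throughout.

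The dim Cacna1h probe set had WT arrays that overlapped both HET and KO, while its KO arrays lay below its HET arrays. It read 21.4, 2.98 and 27.3 on WT arrays, 31.9, 8.73 and 5.35 on HET arrays, then 2.71, 3.42 and 3.65 on KO arrays. The KO arrays were low, but WT replicate 2 was as low and HET replicate 1 was the highest of all. The KO minus WT difference was -0.70 ± 0.38 without a block and 0.36 ± 0.62 with the control-ratio group as a block, so its direction turned. HET minus the midpoint was 0.26 ± 0.33 and did not pass (limma, adjusted p = 0.987). Its mean log2 level of 4.70 lay under the filter.

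Cacna1g, which encodes the Cav3.1 pore, did not follow Cacna1h. Its probe set read 356, 237 and 249 on WT arrays, 273, 252 and 283 on HET arrays, then 387, 262 and 355 on KO arrays. WT replicate 1 lay above KO replicate 2, and KO replicate 2 lay within the HET range, so all genotypes overlapped. The WT mean was 281 ± 65.9, the HET mean 269 ± 16.01 and the KO mean 335 ± 64.7 (SD, n = 3 each). KO was at 119% and HET at 96.0% of WT. The log2 differences were 0.25 ± 0.17 for KO minus WT, with a 95% interval from -0.11 to 0.60, -0.03 ± 0.17 for HET minus WT and 0.28 ± 0.17 for KO minus HET. HET minus the midpoint was -0.16 ± 0.14 and did not pass (limma, adjusted p = 0.987). Within the first control-ratio group HET minus WT was -0.01, and within the second KO minus HET was 0.29.

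Set against each other on the same array, the measured pore genes differed in proportion between KO and the other genotypes. The log2 ratio of Cacna1h to Cacna1g, taken relative to the WT mean, was -0.44, 0.31 and 0.14 on the WT arrays. It was -0.44, -0.26 and -0.44 on the HET arrays and -1.63, -1.02 and -1.86 on the KO arrays. HET overlapped WT in this ratio, whereas every KO array lay below all others. The KO mean was -1.50 ± 0.44 (SD, n = 3). The ratio contains the Cacna1h difference for which the family was selected, so it is a description without a test. A ratio of probe sets shows unequal change and does not give the amount of one channel against the other.

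The pore subunits of high-voltage-activated channels, which carry L-, P/Q-, N- and R-type currents, were a separate list of 7 genes. All had probe sets, and 3 passed the filter. None of these was called or had an unadjusted p under 0.05 between KO and WT, against 1.62% of all 13028 genes tested (limma, adjusted p under 0.05), 0.883% lower and 0.737% higher in KO. As background to the counts in each list, 6725 of the 13028 genes were lower in KO (51.6%) and 6303 higher, and 2240 had an unadjusted p under 0.05 (17.2%). Cacna1c, the pore of the main ventricular L-type channel, read 415, 374 and 339 on WT arrays, 447, 411 and 434 on HET arrays, then 375, 399 and 550 on KO arrays. Its genotypes overlapped, and the difference was 0.21 ± 0.14 (limma, adjusted p = 0.49). A second Cacna1c probe set gave -0.03 ± 0.20 (limma, adjusted p = 0.979 over all probe sets). Cacna1d, the L-type pore known from pacemaker cells, gave 0.52 ± 0.27 from a WT signal of 48.5 ± 20.7 (limma, adjusted p = 0.336). A second Cacna1d probe set gave 0.57 ± 0.47 (limma, adjusted p = 0.712 over all probe sets). Cacna1a, the P/Q-type pore, was dim at 36.9 ± 11.8 in WT and 39.2 ± 0.85 in KO. The median difference of the 3 genes was 0.21, beside -0.01 over all genes tested, and 0.56 beside 0.015 with the control-ratio block. The median of 0.56 is the value of the brighter Cacna1d probe set. With the same block the second Cacna1d probe set gave -0.99, the other direction.

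Auxiliary subunits of the alpha2delta and beta families assemble mainly with high-voltage-activated pores, and the genes of the gamma family were listed with them. Of 16 such genes 15 had a named probe set and 9 passed the filter, 6 lower and 3 higher in KO, with a median of -0.25 (-0.04 with the control-ratio block). None was called by limma, and 2 had an unadjusted p under 0.05. The smallest p values were those of the gamma subunit gene Cacng6 (-0.67 ± 0.24; limma, adjusted p = 0.161) and the beta subunit gene Cacnb1 (-0.89 ± 0.37; limma, adjusted p = 0.223). With the control-ratio block they gave -0.12 and -0.00. Cacnb2, the main beta subunit gene of heart, stayed between 530 and 707 on all arrays, with a difference of 0.06 ± 0.11. Cacna2d1, the alpha2delta subunit gene of cardiac L-type channels, gave 0.15 ± 0.13 and, with the control-ratio block, 0.56 (limma, adjusted p = 0.764). Probe sets of these genes disagreed. A second Cacnb2 probe set gave 0.50 ± 0.16, and the other Cacna2d1 probe sets above the filter gave -0.30 ± 0.22, 0.70 ± 0.29 and 0.32 ± 0.42, none of them called over all probe sets (limma, adjusted p from 0.192 to 0.847).

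**Figure D3:**
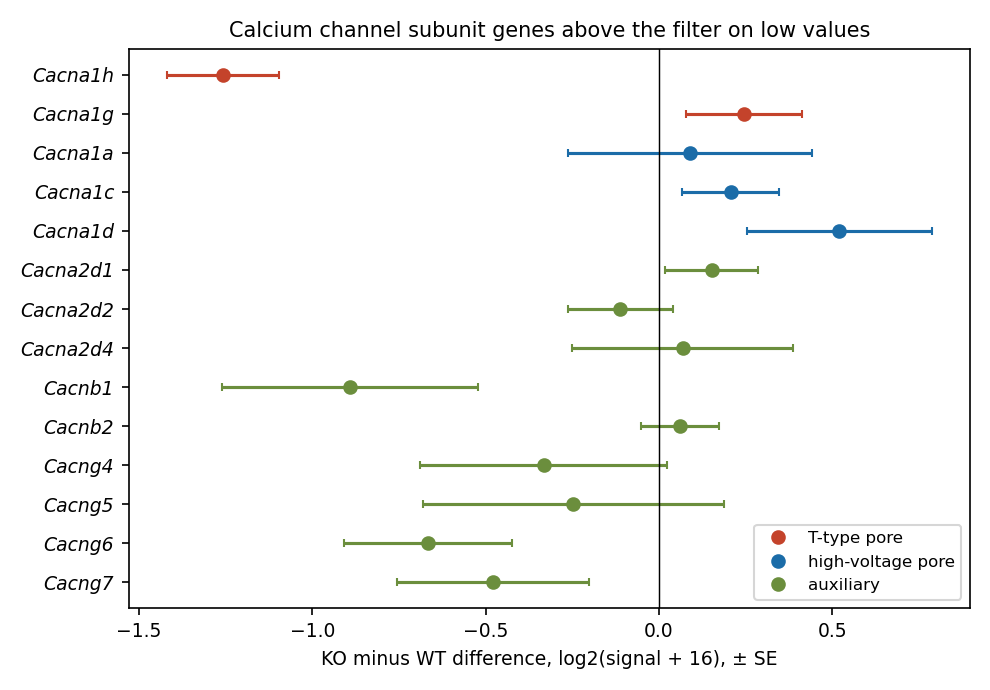
KO minus WT difference on the log2(signal + 16) scale, with its limma standard error, for the calcium channel subunit genes above the filter on low values; T-type values come from the fit over every probe set and the others from the fit over genes. Cacna1h lies at -1.26, while the 3 high-voltage pore genes lie between 0.09 and 0.52 and the auxiliary genes between -0.89 and 0.15.

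Genes that act on T-type channels were listed by function: transcription factors reported to act on Cacna1h, enzymes that ubiquitinate or phosphorylate the channel, and binding partners. Of 19 genes 15 had a named probe set and 14 were tested, 10 lower and 4 higher in KO, with a median of -0.06 (0.06 with the control-ratio block, so the sign turned). None was called by limma, and 2 had an unadjusted p under 0.05. Of these 2, the cardiac transcription factor gene Gata4 gave -0.30 ± 0.09 (limma, adjusted p = 0.105) and, with the control-ratio block, -0.19. Rest, which encodes the repressor of neuronal genes, gave -0.07 ± 0.14, and Nkx2-5, the cardiac homeobox gene, gave -0.14 ± 0.09. Usp5, which encodes a deubiquitinase of Cav3.2, gave -0.06 ± 0.11. The differences of these 3 genes were smaller than 2 standard errors.

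Pacemaker currents and calcium-activated channels, which work beside T-type channels at rest, were represented by 6 tested genes of 11, with 4 lower and 2 higher. Their median was -0.10, and by limma none was called or had an unadjusted p under 0.05. The sodium-calcium exchanger gene Slc8a1 read 1030 ± 86.4 in WT and 930 ± 101 in KO, and Trpm4, a calcium-activated cation channel gene, gave -0.32 ± 0.17 (limma, adjusted p = 0.358; -0.21 with the control-ratio block). Calcineurin and NFAT genes relay calcium entry to transcription, a route through which Cav3.2 is known to act in cardiac hypertrophy. All 13 were tested, 7 were lower and 6 higher, and the median was -0.10 (0.05 with the control-ratio block, the other sign). None was called by limma, and 2 had an unadjusted p under 0.05. Nfatc2 had the smallest p (-0.50 ± 0.14; limma, adjusted p = 0.0888; -0.16 with the control-ratio block), followed by the calcineurin regulator Rcan1 (-0.28 ± 0.10; limma, adjusted p = 0.153; -0.06 with the control-ratio block).

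Markers of other cells that ventricle samples can hold are given because some of these cells also use T-type channels. Of 14 pacemaker and conduction genes 11 had a named probe set and 9 were tested, 6 lower and 3 higher in KO, with 1 rise and no fall called. The summed signal of the list was 2917 to 3186 in WT, 2572 to 3206 in HET and 2726 to 3079 in KO. Such a sum of linear signals is set by the brightest genes of a list, and dim genes count for little in it. The T-box gene Tbx18, which also marks epicardium, rose by 0.84 ± 0.17 (limma, adjusted p = 0.032), but by 0.23 ± 0.25 with the control-ratio block (limma, adjusted p = 0.923). HET replicate 1 read 270 for Tbx18, close to the WT arrays at 195 to 263, and the other HET arrays read 431 and 410. Gja5, the connexin 40 gene of conduction cells, gave -0.76 ± 0.26 (limma, adjusted p = 0.138) and Irx3, a conduction system transcription factor gene, -0.40 ± 0.12 (limma, adjusted p = 0.0991). With the control-ratio block Gja5 gave -0.28 and Irx3 -0.57. The node genes Tbx3 and Shox2 were dim, at 63.4 ± 5.15 and 43.4 ± 13.2 in WT and 50.8 ± 11.2 and 40.3 ± 19.1 in KO. Hcn4, the gene of the main pacemaker channel, has no probe set named in the annotation used here.

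Atrial markers (8 tested) and smooth muscle markers (5 tested) had no call by limma, and 3 and 2 of them had an unadjusted p under 0.05. The atrial sum was 18888 to 24361 in WT, 20918 to 23321 in HET and 19361 to 24611 in KO. The smooth muscle sum was 14151 to 16368 in WT, 15449 to 16919 in HET and 15800 to 18418 in KO. Most of it came from Acta2, at 12753 ± 1111 in WT. Fibroblast markers were higher in KO in 7 of 7 genes with a median of 0.22 (0.24 with the control-ratio block), and their summed signal was 29070 to 32543 in WT, 29357 to 34076 in HET and 33208 to 34738 in KO. Among them the lumican gene Lum rose by 0.33 ± 0.08 (limma, adjusted p = 0.0482). Of 6 endothelial markers 4 were lower and 2 higher in KO, with a median of -0.03 (0.16 with the control-ratio block). Among them Kdr, which encodes the VEGF receptor 2, fell from 1104 ± 109 to 655 ± 27.7 (limma, adjusted p = 0.0262). The 2 higher genes were Emcn (0.21 ± 0.09; limma, adjusted p = 0.224) and Cdh5 (0.31 ± 0.17; limma, adjusted p = 0.378). The summed endothelial signal was 4216 to 4595 in WT, 3825 to 4569 in HET and 3949 to 4328 in KO. The Lum and Kdr calls were lost with the control-ratio block (limma, adjusted p = 0.767 and 0.882; differences of 0.34 and -0.25). Of 9 neural genes 2 passed the filter, Dbh and Sox10, and neither was called by limma (1 had an unadjusted p under 0.05), with a sum of 140 to 182 in WT, 189 to 215 in HET and 223 to 256 in KO. The 10 ventricular myocyte markers had no call by limma, 6 with an unadjusted p under 0.05, and a median of -0.15 (-0.0024 with the control-ratio block). Their summed signal was 187988 to 199727 in WT, 169990 to 190114 in HET and 168111 to 183976 in KO. No tested marker of these lists read 0. The part of these cell type markers in the Cacna1h difference was not tested.

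The calls for Tbx18, Lum and Kdr were all absent without WT replicate 2 or 3 or without any one KO array, and only Tbx18 was called without WT replicate 1. Lum was also not called without HET replicate 2 or 3. Without HET replicate 1 the lists gained calls, and Gata4 and Nfatc2 were among the 10 genes then called. These changes went with the calls over all 13028 genes, which were 211 with all arrays. They fell to 79, 12 and 10 without WT replicates 1, 2 and 3, and to 17, 13 and 19 without KO replicates 1, 2 and 3. Without HET replicates 1, 2 and 3 they were 840, 223 and 203.

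Across the 9 arrays, the gene whose pattern was most like that of Cacna1h among the 13028 tested was Esrrg, at which the genotypes differ (Pearson r = 0.973 on the log2 scale). The likeness uses the genotype differences themselves, and such values come from the extremes of many genes over few arrays. The next were Sdcbp2, which encodes the PDZ scaffold syntenin-2 (r = 0.97), the mitochondrial ribosomal protein gene Mrps22 (r = 0.959), the prostaglandin transporter gene Slco2a1 (r = 0.952), the secreted glutathione peroxidase gene Gpx3 (r = 0.951) and the splicing factor gene Puf60 (r = 0.949). Within genotypes, after the genotype means were taken off, r was 0.451 for Esrrg, 0.499 for Sdcbp2, 0.845 for Mrps22, 0.695 for Slco2a1, -0.08 for Gpx3 and 0.865 for Puf60. Apart from Esrrg, the like genes differed less between KO and WT than Cacna1h. KO was at 22.2% of WT for Esrrg, 62.8% for Sdcbp2, 67.4% for Gpx3, 72.6% for Slco2a1, 86.4% for Mrps22 and 84.3% for Puf60. The most opposite patterns were those of Lum (r = -0.956), the nucleosome assembly protein family gene Nap1l3 (r = -0.947) and Rspry1 (r = -0.943), with -0.918, -0.388 and -0.485 within genotypes.

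**Figure D4:**
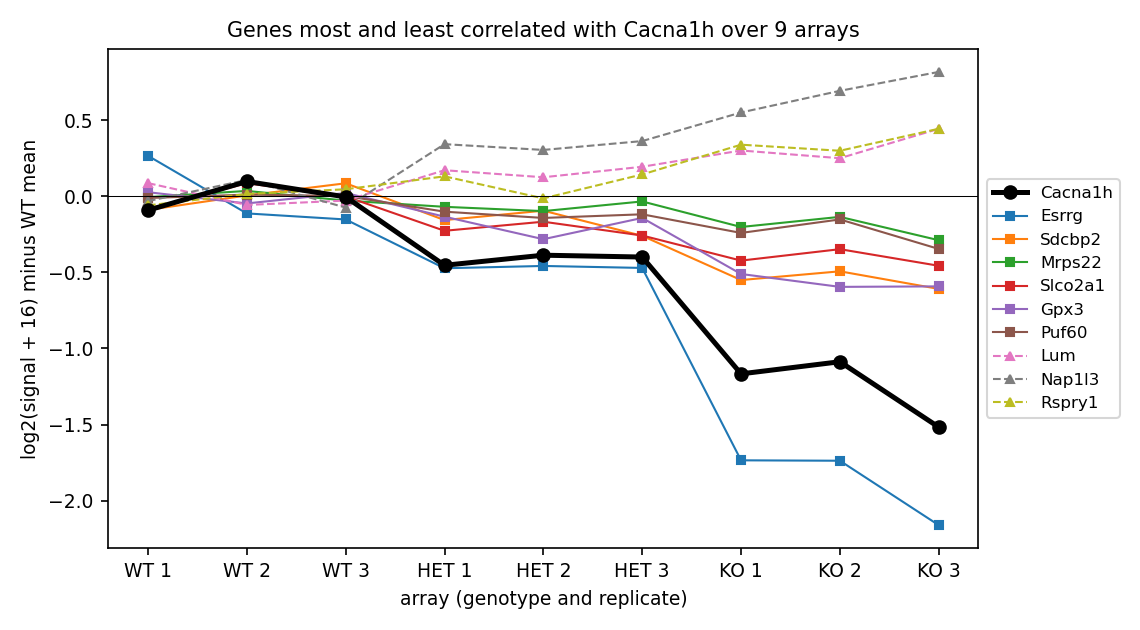
Level of Cacna1h (black) and of the 6 genes most and 3 genes least correlated with it, as log2(signal + 16) minus the WT mean, on each of the 9 arrays; lines join the values of one gene, squares mark genes with the highest r and triangles those with the lowest, and replicates have no order. Cacna1h and Esrrg lie lower in HET and lowest in KO, Esrrg in KO at 22.2% and Cacna1h at 38.8% of the WT signal, and the other genes move over a smaller range.

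Cacna1g had a different set of like genes. The highest were Wwtr1, which encodes the Hippo pathway coactivator TAZ (r = 0.978), the butyrylcholinesterase gene Bche (r = 0.968), Slc35a5 (r = 0.964), Rbm45 (r = 0.949), the planar polarity gene Prickle2 (r = 0.943) and Klf9 (r = 0.926). Their correlations within genotypes were 0.917 to 0.974, nearly the same as over all arrays, so the likeness lay in differences between arrays of one genotype. The most opposite were Zfp395 (r = -0.967), Ifi209 (r = -0.952) and Dusp23 (r = -0.933).

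The nearest genes with a named probe set on either side of each member gene, in the RefSeq order of GRCm38.p6, had no call. Beside Cacna1h these were Tpsg1, a mast cell tryptase gene, and Tekt4, both under the filter at 14.9 ± 9.17 and 12.2 ± 13.5 in WT and 17.3 ± 12.6 and 14.7 ± 9.21 in KO. Beside Cacna1g, the epsin gene Epn3 gave -0.91 ± 0.25 (limma, adjusted p = 0.074) and the transporter gene Abcc3 0.76 ± 0.38 (limma, adjusted p = 0.318), while Cacna1g itself lay at 0.25. Beside Cacna1i, Rps19bp1 gave -0.16 ± 0.11 (limma, adjusted p = 0.491) and Enthd1 lay under the filter.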

How the data were processed

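Total RNA (6 µg) of each sample was labelled as biotinylated cRNA, per the labels' protocols. The authors deposited 1 linear intensity for each probe set and array, the signal of MAS5 per the submitters' processing notes. The MAS5 version was not given in the sources used here. Every deposited column has a mean of 200 without its top and bottom 2%. Detection calls were not used. Gene names came from the annotation of the platform, brought up to date through RefSeq gene IDs (34945 of 45037 name 1 gene, 932 several and 9160 none; 34741 symbols matched).

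Signals were turned to log2(signal + 16). The comparisons used R 4.3.3 with limma 3.58.1 (lmFit, 1 mean per genotype, all 9 arrays; eBayes with an intensity trend; Benjamini-Hochberg; two-sided). Members were fitted over all 45037 probe sets that are not among the 64 controls. Gene lists were fitted over 13028 genes, each by its brightest probe set, leaving out those under the 40th percentile of probe sets. The fit was tested on simulated data. Members and lists were chosen with earlier results of these data known. Named were all members, every called list gene and up to 4 list genes with the smallest p, tested calcium channel subunits, the 6 genes most and 3 least correlated with each member above the filter, and the nearest measured neighbours; Myl2, Rest, Nkx2-5, Usp5, Tbx3 and Shox2 were added for their function, after their values were seen. As an exception to this rule, the values of 1 gene, that with the smallest p among the regulators of T-type channels, are not reported here. Alternatives covered scaling, pseudocount, filter, weights, blocks, probe set choice and leaving out arrays. Same-numbered arrays did not deviate together (correlations -0.04 to 0.05 over 9 pairs), so the numbers were not taken as pairs. Figures used matplotlib 3.10.9 in Python 3.11.15.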

Additional observations from a re-analysis of the deposited data

How the results depend on the processing

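The bright Cacna1h probe set kept its direction in KO minus WT in 21 of 21 alternatives (-1.37 to -0.997), in HET minus WT in 21 (-0.46 to -0.35) and in KO minus HET in 21 (-0.93 to -0.65). Its genotypes did not overlap, so pseudocount, weights or leaving out arrays could not turn these directions. Several settings leave KO minus WT of every probe set unchanged by construction. These are the fits without the intensity trend, with only the arrays compared, with a replicate block, over genes, or without 1 HET array. The counts of 21 are therefore no test of the direction. A pseudocount of 64 shrank KO minus WT to -0.997 and KO minus HET to -0.65, as a larger constant must. Leaving out 1 array gave -1.34 to -1.13 for KO minus WT. HET minus the midpoint ran from 0.15 to 0.26 for this probe set and from -0.24 to -0.07 for Cacna1g, and passed in none of 20 alternatives each (limma, adjusted p from 0.778 and 0.819 upwards). For the dim probe set it ran from -0.10 to 0.49 when 1 array was left out, reversed without HET replicate 1 (-0.10). With only the arrays compared this contrast has no value, since it needs all genotypes, and the fit over genes has none for the dim probe set. Its KO minus WT difference ran from -1.68 with a pseudocount of 1 to 0.36 with the control-ratio block. Cacna1g kept a KO minus WT difference above 0 in 21 of 21 (0.14 to 0.42).

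Calls among calcium channel and signalling genes (0) became 2 with array quality weights, with only the arrays compared, and without the 2 arrays of lowest quality weight (chosen after seeing the data). These 2 arrays were HET replicate 1 and WT replicate 3. Leaving out 1 array gave 0 to 3. Calls among cell type markers (3) became 0 with each array shifted to one median, without the intensity trend, with the control-ratio block or with all probe sets of a gene averaged. They became 5 with quality weights, 7 with only the arrays compared and 6 without the 2 arrays of lowest weight. Leaving out 1 array gave 0 to 7. Shifting each array to one median of the genes tested was also chosen after seeing the data and left 2 of the 3 marker calls. The calls over all genes moved as well. From 211 they went to 612 with quality weights, 773 with only the arrays compared and 441 without the 2 arrays of lowest weight. They were 24 with each array shifted to one median and 236 with one median of the genes tested. With the replicate number as a block, KO minus WT stayed -1.26 for Cacna1h and 0.25 for Cacna1g. It could not change, since each genotype has 1 array per replicate number. The calls over all genes went from 211 to 127. Under the control-ratio block 1 gene was called. The cause of these changes was not tested. The number of arrays limits the precision, and signals near 21.7 have little information.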
